A study of Mus musculus with 6 samples.

Results

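The heat shock proteins of mouse liver examined here are the HSP70, HSP40, HSP90, chaperonin and small heat shock protein genes Hspa8, Hspa1b, Hsph1, Dnaja1, Hsp90aa1, Hsp90ab1, Hspd1, Hspe1 and Hspb1. Cirbp, the cold-inducible RNA-binding protein gene, was set beside them. Every probe set whose single gene symbol in the platform annotation was one of these 10 genes was taken. This gave 11 probe sets for 9 of the 10 genes, out of 12488 probe sets for 8252 genes in all. No probe set was matched to Hsp90ab1, which is not analysed here. Hspd1 and Hspe1 encode chaperonins of the mitochondrial matrix, so the members are not all cytosolic.

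The arrays held RNA from the liver of C57BL/6 mice, an inbred laboratory strain, fed a Western-style diet rich in fat (3 arrays) or a low-fat diet (3 arrays), each for 12 weeks. The keywords of both groups name LDL receptor deficiency, while the descriptions give C57BL/6 and no other genotype. The labels name no age, sex or time of tissue collection and do not say whether an array held 1 mouse or a pool. Each array is named as a sample of its diet, numbered 1 to 3. P-values therefore measure the spread between these arrays.

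Heat shock proteins bind unfolded proteins and help them to fold, and many are induced by heat shock factor 1, which binds repeats of the element GAANNTTC in promoters. HSP70 proteins bind and release clients in a cycle driven by ATP, J-proteins such as Dnaja1 start that cycle, and HSP110 proteins such as Hsph1 exchange the nucleotide. In mouse liver many of these transcripts rise and fall over the day with body temperature and feeding, and Cirbp, which is induced by mild cold, cycles in a phase opposite to theirs.

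The stretches around the heat shock element are printed because this element is the sequence that the family shares. They are given for the members that hold one ahead of an annotated gene start. The matches of Hspd1 are the same bases as those of Hspe1 and are printed once, under Hspe1. RefSeq promoter windows (build GRCm38.p6, from 250 bases before to 50 bases after a start) were matched for 7 of the 10 genes, in 12 windows. Both strands were searched for GAANNTTC and TTCNNGAA, which are each their own reverse complement and overlap where the units alternate. Capitals mark the matches.
Hspa1b: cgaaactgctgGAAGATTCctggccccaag
Hsph1: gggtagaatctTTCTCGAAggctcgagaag
Hspe1: gtccgTTCTAGAACCTTCCGGAAggccccg
Hspb1: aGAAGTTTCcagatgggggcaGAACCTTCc
Dnaja1: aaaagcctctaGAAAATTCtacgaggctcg

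These stretches lie at chr17:34959324-34959353 on the minus strand for Hspa1b and at chr5:149636351-149636380 on the minus strand for Hsph1. Those of Hspe1, Hspb1 and Dnaja1 lie on the plus strand, at chr1:55088054-55088083, chr5:135887801-135887830 and chr4:40722333-40722362. A match stood in 7 of the 12 windows, which belong to 6 of the 7 genes, and 15.1% of all 32851 promoter windows held one. The longer form of 3 alternating units stood in 4 of the 12 windows (Hsph1, Hspd1 and Hspe1) and in 0.603% of all windows. Both Hsph1 windows overlap and hold the same longer match, which lies after the start and outside the printed stretch. Hspd1 and Hspe1 are neighbours transcribed away from each other, and the same 18 bases of overlapping matches, chr1:55088059-55088076, stood in the windows of both. Neither Cirbp window held these letters.

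None of the heat shock or Cirbp probe sets passed the threshold used for a difference between the diets, an adjusted p of 0.05 from limma over 8950 tested probe sets. The test took the probe sets with 3 or more of the 6 arrays above a floor intensity of 68.9, the 30th percentile of all values, and 10 of the 11 passed. Of these 10, 0 were called, against 0.827% of all tested probe sets, which were 0.402% called higher and 0.425% called lower with the high-fat diet. An unadjusted p under 0.05 was reached by 2 of the 10, Hsp90aa1 higher and Hspd1 lower on the high-fat diet, where the share over all tested probe sets was 9.07%. On 3 of the 10 the high-fat arrays lay wholly above or below the low-fat arrays, without overlap, against 14.1% of all tested probe sets. Of these 3, 1 was higher (7.34% of all tested probe sets) and 2 were lower (6.76%) with the high-fat diet. The higher set was of Hsp90aa1 and both lower sets were of Hspd1, so the 3 belong to 2 genes. On both Hspd1 sets the nearest arrays of the diets were almost equal, at 10095 and 10178 and at 112.4 and 112.9. The median log2 fold change of the 10, high-fat minus low-fat, was 0.01, that of all tested probe sets was 0.00, and the 10 ran from -0.95 to 0.40. The smallest difference among the 74 called probe sets of the series was 1.61-fold, and no smaller difference gave a call with 3 arrays against 3.

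**Figure D1:**
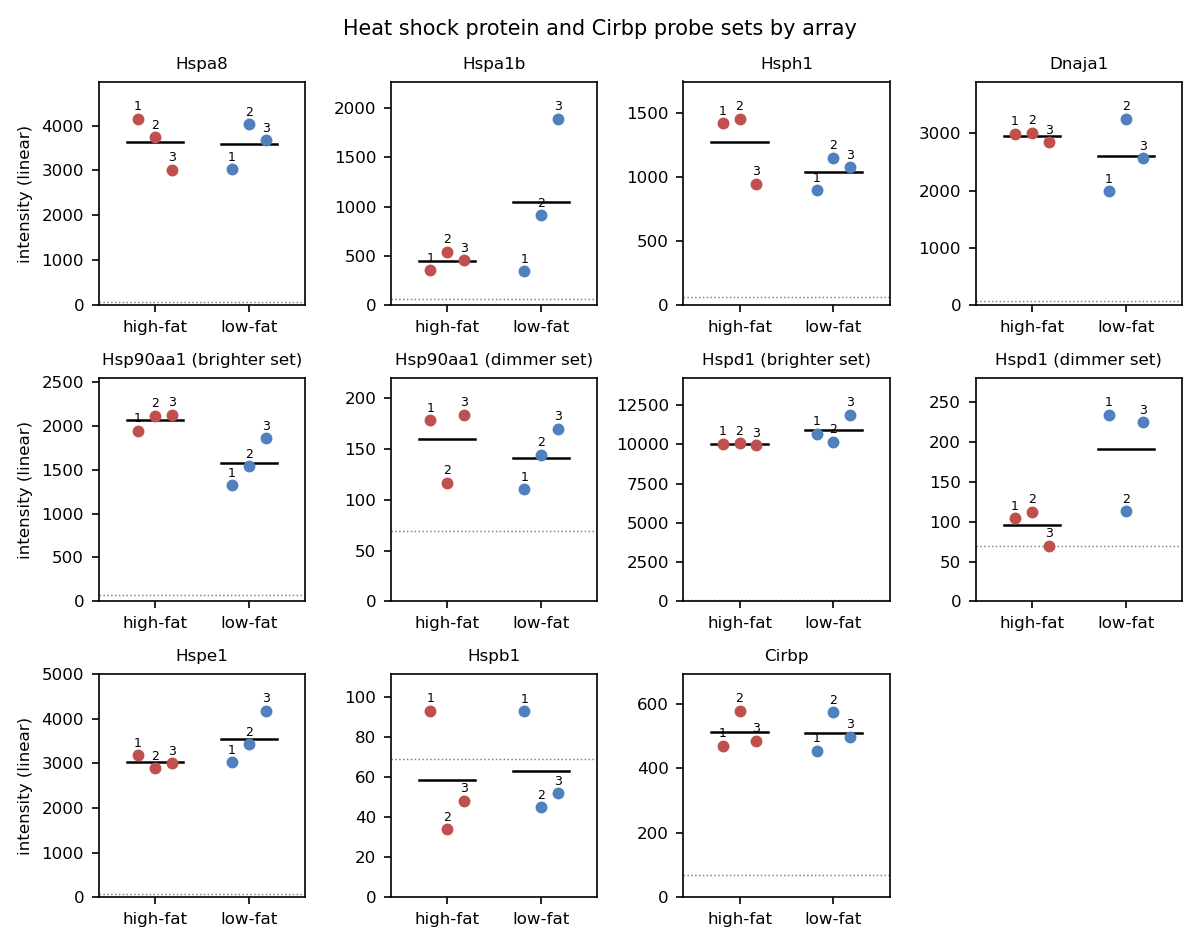
Deposited linear intensity of the 11 probe sets on each array, with high-fat samples at the left and low-fat samples at the right of each panel. Numbers name the arrays, bars are means of 3 arrays, and the dotted line is the floor intensity of 68.9. The brighter Hsp90aa1 set and both Hspd1 sets are the panels in which the diets do not overlap.

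The constitutive HSP70 gene Hspa8, whose product Hsc70 is the main cytosolic HSP70 of unstressed cells, had intensities of 4149, 3743 and 3017 on the high-fat samples 1, 2 and 3 and of 3030, 4036 and 3681 on the low-fat samples 1, 2 and 3 (probe set 96564_at). The diets overlapped over their whole range. The means were 3636 ± 573 with the high-fat diet and 3583 ± 510 with the low-fat diet (SD, n = 3 each). The ratio of high-fat to low-fat was 1.01 with a 95% interval of 0.792 to 1.30 (limma's adjusted p = 0.992). Its sign changed with any of high-fat samples 1 and 2 and low-fat sample 1 left out.

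The stress-inducible HSP70 gene Hspa1b had the widest spread of the members, by the ratio of its highest to its lowest array. Its intensities were 354, 542 and 458 on the high-fat samples 1, 2 and 3, against 347, 914 and 1887 on the low-fat samples 1, 2 and 3 (probe set 100946_at). Low-fat samples 2 and 3 lay above all of the high-fat samples, while low-fat sample 1 lay below them, so the diets overlapped. The highest low-fat sample was 5.43 times the lowest, and the same ratio among the high-fat samples was 1.53. A range as wide among the low-fat samples was found in 0.190% of all tested probe sets, and one as wide as that of the high-fat samples in 36.1%. The log2 difference between the diets was -0.92 ± 0.50 (SE), a ratio of high-fat to low-fat with a 95% interval of 0.240 to 1.16 (limma's adjusted p = 0.675). It was -0.34 without low-fat sample 3 (adjusted p = 0.877) and -1.56 without low-fat sample 1 (adjusted p = 0.122). Hspa1b and its neighbour Hspa1a are near-identical copies, so which of them gave the signal is uncertain.

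The values of 3 further chaperone genes are given because they were high and low on the same arrays as Hspa1b, so their likeness to it is no result. Hspa1a stood at 87.8, 250.3 and 240.5 on the high-fat samples 1, 2 and 3 against 116, 316 and 385 on the low-fat samples 1, 2 and 3. Dnajb1, the J-protein partner of inducible HSP70, stood at 230, 413 and 305 on the high-fat against 311, 476 and 520.1 on the low-fat samples. Dnajb4, a related J-protein gene, stood at 111, 161 and 134 on the high-fat against 102, 158 and 282 on the low-fat samples. In all of these the lowest array of each diet was array 1, and the highest of all 6 was low-fat sample 3. Over the 6 arrays the Pearson correlation of their log2 values with those of Hspa1b was 0.958 for Dnajb4, 0.871 for Dnajb1 and 0.839 for Hspa1a, which were ranks 12, 84 and 132 among 7973 probe sets. The highest was that of Gpr50, an orphan receptor gene, at 0.989. Among the other tested members it was 0.891 for Hspe1 (rank 66), 0.728 and 0.351 for the Hspd1 sets, 0.385 for Cirbp, 0.302 for Hspa8, 0.0627 and 0.244 for the Hsp90aa1 sets, 0.177 for Dnaja1 and -0.03 for Hsph1. These are descriptions over 6 arrays that share the array scaling. None of Hspa1a, Dnajb1 and Dnajb4 passed limma's test between the diets (adjusted p from 0.720 to 0.899), and their diets overlapped.

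**Figure D2:**
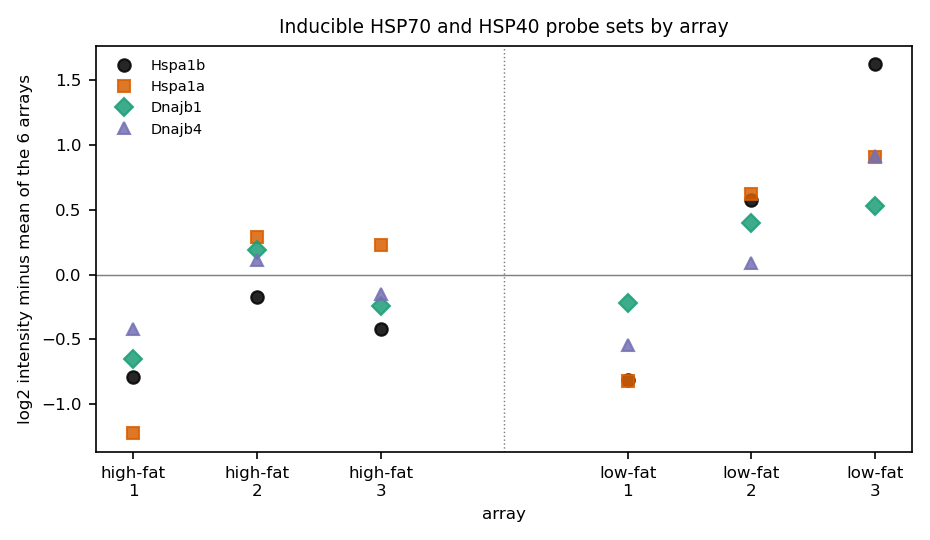
Log2 intensity, after the floor, minus the mean of the 6 arrays for Hspa1b, Hspa1a, Dnajb1 and Dnajb4, with high-fat samples at the left and low-fat samples at the right. All 4 are lowest on array 1 of each diet and highest on low-fat sample 3, where Hspa1b had an intensity of 1887.

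Hsph1, the HSP110 nucleotide exchange factor of HSP70, had intensities of 1420, 1455 and 949.8 on the high-fat samples 1, 2 and 3, against 899, 1153 and 1078 on the low-fat samples 1, 2 and 3 (probe set 98111_at). High-fat samples 1 and 2 lay above every low-fat sample and high-fat sample 3 lay among them. The ratio of high-fat to low-fat was 1.21 with a 95% interval of 0.899 to 1.62 (limma's adjusted p = 0.774). The log2 difference was 0.27 with all arrays and 0.47 without high-fat sample 3 (adjusted p = 0.328). It was 0.18, 0.16 and 0.17 without high-fat sample 1, high-fat sample 2 and low-fat sample 1.

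Dnaja1 encodes the J-protein DJA1, which delivers clients to cytosolic HSP70. It had intensities of 2991, 3005 and 2846 on the high-fat samples 1, 2 and 3, against 1991, 3248 and 2559 on the low-fat samples 1, 2 and 3 (probe set 97261_at). The high-fat samples lay within 1.06 times of each other, and the low-fat samples lay on both sides of them. The log2 difference was 0.21 ± 0.17 (SE), with an adjusted p of 0.815 from limma, 0.03 without low-fat sample 1 (adjusted p = 0.984) and 0.39 without low-fat sample 2.

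Hsp90aa1, the stress-inducible cytosolic HSP90 gene, had intensities of 1942, 2114 and 2123 on the high-fat samples 1, 2 and 3, against 1321, 1539 and 1857 on the low-fat samples 1, 2 and 3 (probe set 95282_at). Every high-fat sample lay above every low-fat sample. The means were 2059 ± 102 with the high-fat diet and 1572 ± 270 with the low-fat diet (SD, n = 3 each). The ratio was 1.32 with a 95% interval of 1.06 to 1.65, with an unadjusted p of 0.0204 and an adjusted p of 0.403 in limma, so it was not called. The dimmer Hsp90aa1 probe set (161869_i_at) read 179, 117 and 184 on the high-fat samples, against 110.3, 145 and 170.0 on the low-fat samples. There the diets overlapped, and the ratio was 1.12 with an interval of 0.708 to 1.78 (limma's adjusted p = 0.940).

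The mitochondrial chaperonin genes Hspd1 (HSP60) and Hspe1 (its HSP10 lid) form the ring complex that folds imported proteins. The brighter Hspd1 probe set (93277_at) had intensities of 10057, 10095 and 9936 on the high-fat samples 1, 2 and 3, against 10685, 10178 and 11888 on the low-fat samples 1, 2 and 3. All high-fat samples lay below all low-fat samples, by a margin that was small between high-fat sample 2 and low-fat sample 2. The log2 difference was -0.12 ± 0.12 (SE), with an adjusted p of 0.866 from limma and a 95% interval of the ratio of 0.762 to 1.11. It was -0.06 without low-fat sample 3. The dimmer Hspd1 set (161140_r_at), whose suffix marks relaxed probe selection, stood at 104, 112.4 and 69.9 on the high-fat against 234, 112.9 and 225 on the low-fat samples. High-fat sample 3 lay just above the floor there, and the high-fat and low-fat samples 2 were nearly equal. The ratio of low-fat to high-fat was 1.94 for that set, and the interval of high-fat to low-fat was 0.298 to 0.896, with an unadjusted p of 0.0238 and an adjusted p of 0.432, so it was not called.

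Hspe1 stood at 3179, 2898 and 3006 on the high-fat samples 1, 2 and 3, against 3024, 3425 and 4178 on the low-fat samples 1, 2 and 3 (probe set 92829_at). Low-fat samples 2 and 3 lay above the high-fat samples and low-fat sample 1 lay among them. The log2 difference was -0.22 ± 0.14 (SE; limma's adjusted p = 0.741) and -0.09 without low-fat sample 3. The differences of Hspe1 and of both Hspd1 sets thus had the same sign, and each of the 3 missed the threshold. The highest array of Hspe1 and of the brighter Hspd1 set was low-fat sample 3.

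Hspb1 encodes the small heat shock protein HSP25 of the mouse, which holds unfolded proteins without ATP. It was dim, at 93.1, 34.2 and 48.2 on the high-fat samples 1, 2 and 3, and at 92.8, 45.0 and 51.9 on the low-fat samples 1, 2 and 3 (probe set 92853_at). Only array 1 of each diet lay above the floor, so it was not tested.

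Cirbp had intensities of 470.3, 578 and 486 on the high-fat samples 1, 2 and 3, against 455, 575 and 498 on the low-fat samples 1, 2 and 3 (probe set 93284_at). Array 2 was the highest and array 1 the lowest of each diet, and the diets overlapped almost entirely. The means were 511 ± 58.4 with the high-fat diet and 509 ± 61.0 with the low-fat diet (SD, n = 3 each). The log2 difference was 0.01 ± 0.17 (SE), and the 95% interval of the ratio ran from 0.766 to 1.32 (limma's adjusted p = 0.997). Pancreatic acinar transcripts were also highest on array 2 of each diet. On all 4 of the acinar genes with a probe set (Cela1, Cela2a, Cel and Prss2) array 2 was the highest of each diet. Their lowest array of each diet was array 3, where that of Cirbp was array 1. Their summed intensity was 1474 to 7872 on the high-fat samples and 1586 to 4207 on the low-fat samples. In bulk tissue, fewer cells of a type and less RNA per cell cannot be told apart. The part of these transcripts in the order of the Cirbp values was not tested. Without both arrays numbered 2 the log2 difference of Cirbp was 0.01.

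The probe sets most like Cirbp over the 6 arrays, by Pearson's r of log2 values among 7973 probe sets, were those of Pla2g12a (0.987), Tnni3 (0.985) and Antkmt (0.984). An r of at least 0.9 was reached by 56 probe sets. Pla2g12a lay below the floor on low-fat sample 1, at 53.7, and Tnni3 on high-fat sample 1, at 21. The floor stood in for these values in the correlation. For Hsp90aa1, the member with the smallest p, they were Fpgs (0.991), Acad9 (0.985) and Socs3 (0.984), and 114 of 7972 probe sets reached 0.9. Fpgs encodes the enzyme that adds glutamates to folate, and Acad9 an acyl-CoA dehydrogenase of mitochondria.

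**Figure D3:**
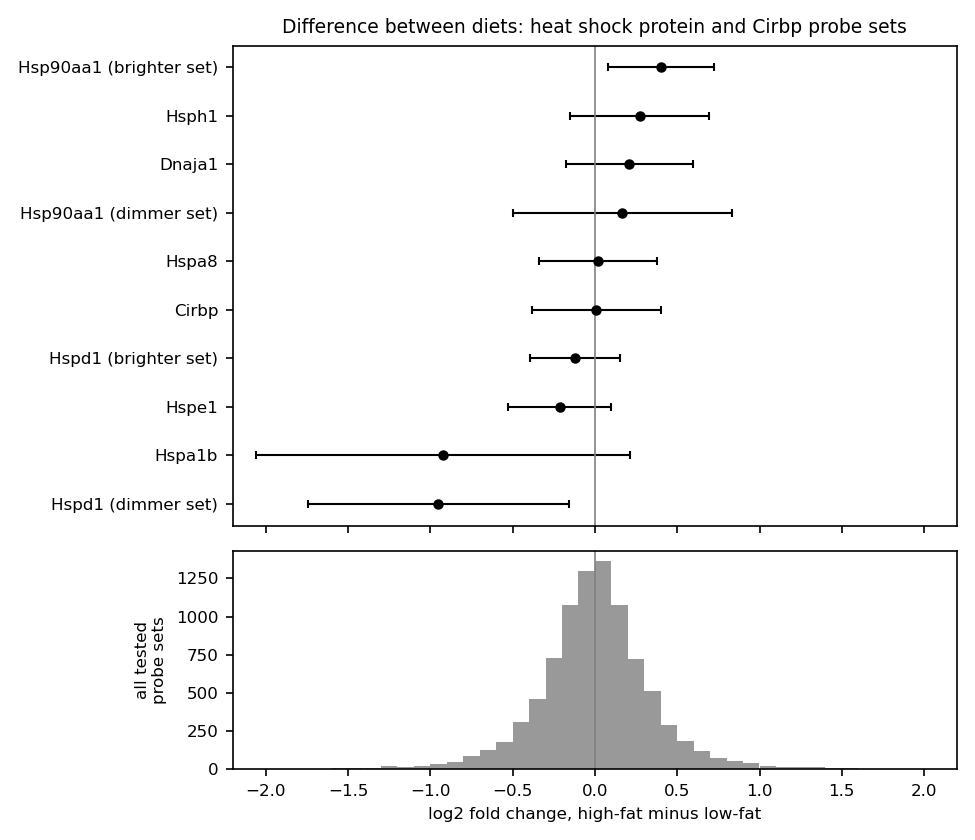
Upper panel, log2 fold change, high-fat minus low-fat, of the 10 tested heat shock and Cirbp probe sets, with 95% intervals from limma. Lower panel, number of all tested probe sets per 0.1 of log2 fold change, where values beyond the axis are not drawn. The intervals of the brighter Hsp90aa1 set and the dimmer Hspd1 set leave out 0, and neither set was called after adjustment.

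Low-fat sample 1 was the lowest of the low-fat samples on 8 of the 10 tested probe sets, against 34.6% of all tested probe sets, and the lowest of all 6 arrays on 6 of the 10, against 18.3%. The high-fat samples spanned a narrower range than the low-fat samples on 7 of the 10, against 47.5% of all tested probe sets. These counts were chosen after the values were seen, and Hsp90aa1 and Hspd1 each gave 2 of the 10 sets. The ratio of the 3' to the 5' control probe set of Gapdh, a measure of RNA integrity, was 1.04 on low-fat sample 1 and between 0.82 and 1.23 on the 6 arrays, with the lowest values on high-fat and low-fat sample 3. The same ratio of the actin control was 1.63 on low-fat sample 1 and between 1.56 and 1.96 on the 6 arrays, where high-fat and low-fat sample 3 had 1.79 and 1.75. The part of either ratio in the order of the arrays was not tested.

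The other chaperone genes gave no calls between the diets. Of 64 listed genes, 52 had a probe set and 47 were tested, on 64 probe sets. In limma 0 of these 64 were called, 3 reached an unadjusted p under 0.05, and the median log2 fold change was -0.04. Over these 64 sets, 37 had a log2 fold change below 0 and 27 above. J-proteins and cofactors of HSP70 had the lowest median of the chaperone lists, at -0.22. They were below 0 on 16 of 21 probe sets of 15 genes, where 4432 of all 8950 tested probe sets were below 0. This list is named for its median in these same values, and some of its genes gave several sets. The J-protein gene Dnajb6 stood at 1595, 1473 and 1385 on the high-fat against 1904, 2178 and 1989 on the low-fat samples, without overlap, at a ratio of low-fat to high-fat of 1.36 (adjusted p = 0.212), and its remaining probe set was at -0.13 on the log2 scale. Bag2, which acts on HSP70 and its ubiquitin ligase, was at -0.43 on the log2 scale (adjusted p = 0.587), and its other 2 sets were at -0.47 and, on the brightest, at 0.21.

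Cofactors of HSP90 had a median of 0.09 over 10 probe sets, with 6 above 0. Unc45a, a myosin chaperone that works with HSP90, stood at 151, 176 and 151 on the high-fat against 123.4, 49.0 and 50.8 on the low-fat samples, where 2 lay below the floor, and its ratio was 1.89 (adjusted p = 0.354). Stip1, the HOP protein that bridges HSP70 and HSP90, stood at 553, 488 and 458 on the high-fat against 435, 337 and 306 on the low-fat samples, without overlap, at a ratio of 1.40 (adjusted p = 0.498). Of the 10 HSP90 cofactor sets, which belong to 8 genes, 3 were higher on each high-fat sample than on every low-fat sample. This held for 7.34% of all tested probe sets, and 0 of the 10 were called. The 3 were the sets of Unc45a and Stip1 and a Chordc1 set at a ratio of 1.13 (limma's adjusted p = 0.797). The diets overlapped on the other Chordc1 set, which was at 0.04 on the log2 scale. The Unc45a set passed the filter through its high-fat samples, so its place in this count is no result. Over all 64 tested sets of the other chaperone lists, 4 were higher and 5 lower without overlap. The shares over all tested probe sets were 7.34% and 6.76%.

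The remaining lists had medians between -0.13 and 0.10. Among the other HSP70 genes, Hspa9, the mitochondrial HSP70 mortalin, had a log2 difference of -0.31 (adjusted p = 0.611) and Hspa4, an HSP110 relative, one of 0.48 (0.640) on its brightest probe set. The other 4 tested sets of Hspa4 were below 0, from -0.68 to -0.02. Among small heat shock proteins these were 0.85 for Hspb2 (0.618) and -0.43 for a dim set of Hspb8 (0.791), whose brighter set was at -0.09. The cytosolic CCT chaperonin subunits Cct3 and Cct7 had 0.24 (0.687) and -0.19 (0.720), while the other 2 sets of Cct3 were at -0.01 and -0.12, the last on its brightest set. Grpel2 and Htra2 of the mitochondrial folding and protease list had 0.27 (0.838) and 0.48 (0.884). That Htra2 set was dim and ran from 64.1 to 330 on the high-fat samples, and its brighter set was at -0.07. Hsbp1, which encodes a protein that binds heat shock factor 1, had 0.10 (0.967). Hsf2 and Hsf4 were below the floor on every array, and no single-gene probe set was matched to Hsf1 or to the cold-induced Rbm3.

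**Figure D4:**
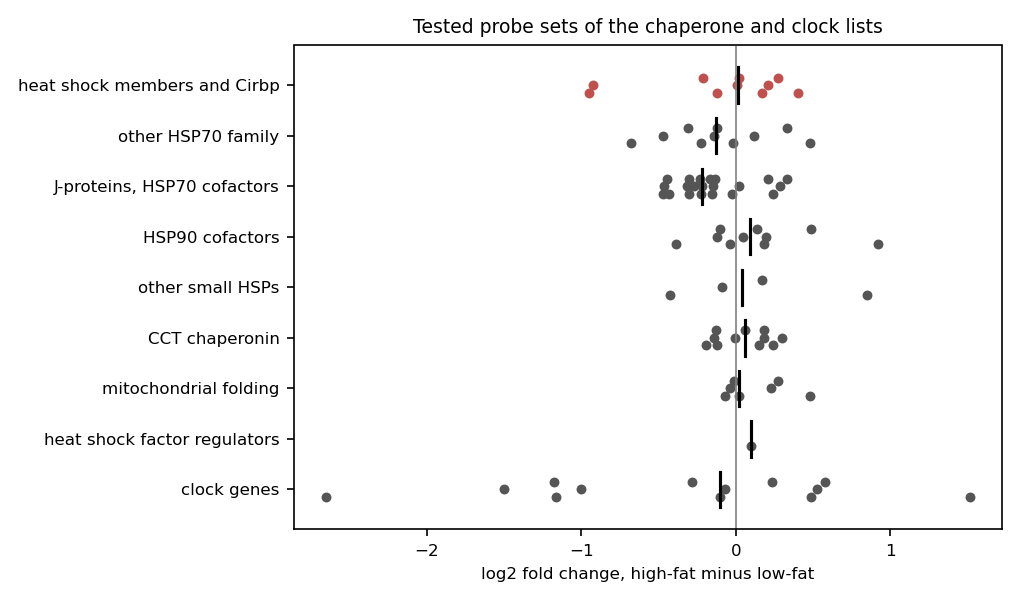
Log2 fold change, high-fat minus low-fat, of the tested probe sets of each gene list, with 1 point per probe set and a bar at the median. The heat shock and Cirbp sets run from -0.95 to 0.40, and the points beyond -1.4 or 1.4 all belong to clock genes.

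Clock genes on the same arrays included 2 that passed the test. Dbp, a clock output transcription factor gene, stood at 117, 237 and 177 on the high-fat against 1119, 1163 and 939 on the low-fat samples, and was 6.29-fold lower (adjusted p = 0.00242). Per2, a core clock gene that heat shock factor 1 can also drive, stood at 76.8, 92.2 and 108 on the high-fat against 252, 259.9 and 266 on the low-fat samples, and was 2.83-fold lower (adjusted p = 0.0287). Of 13 tested clock probe sets 2 were called lower and 0 higher, where 0.425% of all tested probe sets were called lower and 0.402% higher. The clock list was chosen with earlier results of these data known, so this count is no result about clock genes. Arntl, the gene of the clock activator BMAL1, had a ratio of high-fat to low-fat of 2.86 (adjusted p = 0.0523) and was not called. The other uncalled clock sets ran from a log2 difference of -1.179 for Nr1d2 to 0.575 for Nfil3, with Per3 at -0.073 and Nr1d1 at -0.101. Set beside them, the 95% interval of the Cirbp ratio was 0.766 to 1.32 and that of Hspa8 was 0.792 to 1.30. Whether these differences differ from one another was not tested.

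Across the series, hepatocyte markers were bright on each array apart from a dim Apoa2 set, which ran from 77.4 to 143. Alb lay between 38398 and 49245 on the high-fat samples and between 34920.4 and 46802 on the low-fat samples. Tat was 1.73-fold lower with the high-fat diet, without overlap, and was not called (limma's adjusted p = 0.0742). Acta1, a skeletal muscle actin, stood at 1771 on high-fat sample 2 and at or below 60.0 on the others. The brighter sets of the other muscle markers showed no such jump. On high-fat sample 2 Ckm stood at 156, Myh4 at 305.5, Mylpf at 273.5 and Tnnc2 at 207. On the other arrays these ran from 95.6 to 177, 172 to 350, 210 to 257 and 77.9 to 186.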

How the data were processed

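Liver RNA of 6 samples was measured on 1 array each, and the diet and number of an array were taken from its title. The authors deposited 1 linear intensity for each of 12488 probe sets per array, and no label or header names the software behind it. The values show that whole arrays had been scaled, since the mean without the lowest and highest 2% ran from 499.6 to 499.9. Such scaling cannot show a change shared by most transcripts.

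Names came from the platform annotation, with 1 symbol for 10855 probe sets, several for 396 and no entry for 1237. Of the first, 10839 were matched by gene ID to RefSeq (GRCm38.p6), which changed 0 symbols. Values under the floor of 68.9 were set to it and log2 was taken. The 66 control probe sets were left out. Differences, high-fat minus low-fat, were fitted in limma (version 3.58.1, R version 4.3.3) by lmFit and eBayes with an intensity trend, two-sided, adjusted by Benjamini and Hochberg over all 8950 tested probe sets. Every adjusted p is limma's. Ratios are on the floored log2 scale and understate the change of dim genes. Intervals are limma's at 95%. The method was tested on simulated data. The number of arrays limits the precision.

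All members are described with every probe set. Of each further list, the called genes are named, or else the 2 with the smallest p. Similar patterns are the 3 highest correlations for Cirbp and for the member with the smallest p. Other named genes, such as Arntl, Acta1 and those set beside Hspa1b, were picked later. The members and lists were chosen with earlier results of these data known. The alternatives are given in the closing section.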

Additional observations from a re-analysis of the deposited data

How the results depend on the processing

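With each of 21 alternatives, 0 heat shock or Cirbp probe sets and 0 probe sets of the other chaperone lists were called. The alternatives changed the scaling, floor, filter, variance model, array weights, threshold or probe sets, added the replicate number as a block, or left out arrays. The median log2 fold change of the members stayed between -0.08 and 0.10. The number of all called probe sets, 74, was 8 without a filter, 20 without the intensity trend and 120 at an adjusted p of 0.10. It was 6 without both arrays numbered 2 and 38 without both arrays numbered 3, settings chosen after the data were seen. With each array left out in turn it ran from 26 to 75. It was 28 without high-fat array 2, and 31, 26 and 45 without low-fat arrays 1, 2 and 3. Without a filter 12422 probe sets were tested. With the floor at the 10th percentile 11483 were tested and 65 were called. Fewer arrays entered where arrays were left out, and without high-fat array 1 the number called was 75. The cause of these moves was not tested.

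Signs changed for 3 member probe sets, at 0.007 (Cirbp), 0.019 (Hspa8) and 0.166 (the dimmer Hsp90aa1 set) with all arrays. Cirbp was -0.001 at a common median and -0.016 with array weights, and from -0.085 to 0.098 with single arrays left out. Hspa8 ran from -0.097 to 0.148 and the dimmer Hsp90aa1 set from -0.003 to 0.377 with single arrays left out. The other 7 tested member sets kept their sign under every alternative that tested them.

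The main fit did not pair arrays by their number. Deviations from the diet means correlated at 0.071, 0.110 and 0.306 between the diets for arrays 1, 2 and 3. Between arrays of unlike number they correlated at -0.205 to 0.113. The labels do not say whether a shared number marks a pair or a batch, and this was not tested. With the replicate block, 103 probe sets were called in all, against 74, and 0 among the members. The adjusted p of Hspa1b in limma was then 0.330, against 0.675 in the main fit.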
